A study of Saccharomyces cerevisiae with 8 samples.

Results

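The expression of 10 genes of glycerol metabolism was followed in yeast cells exposed to NaCl. They were picked by open reading frame from the deposited values table, which holds 6868 features: *GPD1* (YDL022W), *GPD2* (YOL059W), *GPP1* (YIL053W, also RHR2), *GPP2* (YER062C, also HOR2), *STL1* (YDR536W), *FPS1* (YLL043W), *GCY1* (YOR120W), *DAK1* (YML070W), *GUT1* (YHL032C) and *GUT2* (YIL155C). All 10 had a value on every array, and all 10 were among the 6135 features tested. The genes were listed by function, but with earlier results of these data known. Of the 10, 5 (*GPD1*, *GPP1*, *GPP2*, *STL1* and *GCY1*) are also among 67 genes that the study lists under Hot1, an osmotic stress transcription factor.

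Glycerol is the compatible solute that budding yeast accumulates to balance the outside osmolarity after salt stress. Its main route starts from the glycolytic intermediate dihydroxyacetone phosphate, which Gpd1 or Gpd2 reduces to glycerol-3-phosphate and Gpp1 or Gpp2 then dephosphorylates. Cells keep the product by closing the channel Fps1 and by importing glycerol through the symporter Stl1. Glycerol is used again through the kinase Gut1 and the mitochondrial dehydrogenase Gut2, whose genes are repressed by glucose, or through Gcy1 and Dak1, which pass it back by way of dihydroxyacetone.

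There were 8 two-colour arrays of 3 *Saccharomyces cerevisiae* strains in the W303 background: *snf1* (3 arrays), *cdc14-3* (2 arrays, numbered replicates 2 and 3) and *cdc14-3 snf1* (3 arrays). The *snf1* strain lacks the kinase Snf1, which adjusts transcription to the carbon source. The *cdc14-3* strain carries a heat-sensitive form of the mitotic exit phosphatase Cdc14, and *cdc14-3 snf1* combines both mutations. Cultures of all 3 strains were in rich YPD medium at 25 °C, were moved to 35 °C and then received NaCl to 0.7 M for 30 min at the raised temperature. The 35 °C step lasted 90 min for 2 arrays, namely the first replicates of *snf1* and *cdc14-3 snf1*, and it lasted 2 h for the remaining 6. Each value was read as the log2 ratio of NaCl-treated cells over unstressed cells of the same strain, so it measures a change and not a transcript level. The unstressed cells were taken before NaCl was added, and the treated cells therefore had 30 min more at 35 °C. The part of this extra time in each ratio cannot be told apart from that of NaCl. No wild-type arrays were analysed here.

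The 8 arrays had values for 6165 to 6776 features, with a median of 0 to within 0.001 and a standard deviation of 0.72 to 1.10. The direction of the ratio is not stated with the values and was read from them: the Hot1 targets outside the 10 genes averaged 0.90 to 2.01 per array and the ribosomal protein genes -1.56 to -0.38. A log base of 2 was inferred from how the study plots such ratios and is not certain, and how probes were combined into 1 value is unknown. The *snf1* replicate 1 array had the widest spread, and its ratio for *SNF1* itself was 2.41, against -0.43 to 0.28 on the other 7 arrays. A ratio within a strain gives no level of *SNF1* and so cannot check the deletion. The labels do not say that replicates came from separate cultures, so p-values measure the spread between these arrays, which may be technical.

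The NaCl response was strongly unequal within the pathway. *STL1*, *GPD1* and *GPP2* rose in all 3 strains to the top of the ranking of 6135 features, *DAK1* and *GCY1* also rose in all 3 strains but by very different amounts, and *GPP1*, *GUT1* and *GUT2* passed the test in some strains only. *GPD2* and *FPS1* passed the test in no strain. The plot of the 8 arrays shows the values behind these statements.

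**Figure D1:**
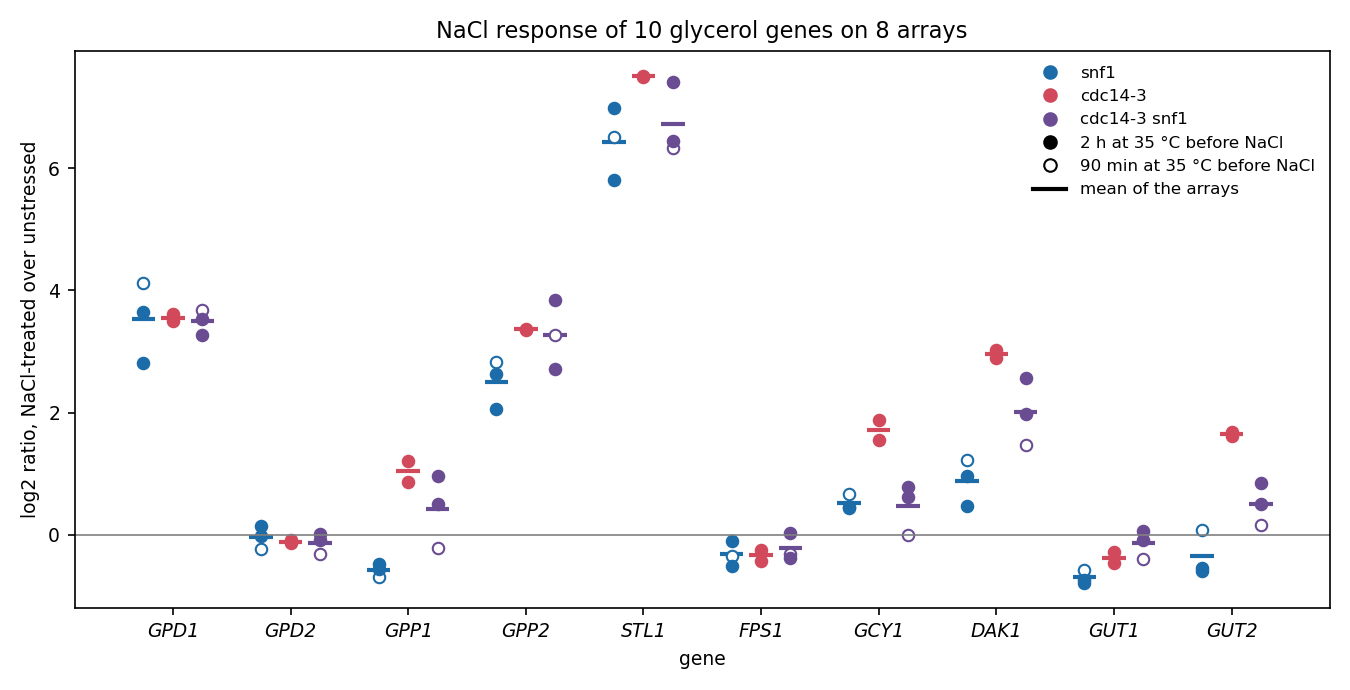
Log2 ratio of NaCl-treated over unstressed cells (vertical axis) for each of the 10 genes (horizontal axis) on the 8 arrays. Points are single arrays coloured by strain, open points are the 2 arrays with 90 min at 35 °C before NaCl, and bars are strain means. *STL1* lies between 5.80 and 7.51, *GPD1* between 2.81 and 4.11 with the 3 strains overlapping, and for *DAK1* and *GUT2* the 2 *cdc14-3* arrays lie above all others.

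*GPD1* encodes the NAD-dependent glycerol-3-phosphate dehydrogenase that osmotic stress induces. Its log2 ratio was 4.11, 3.66 and 2.81 on the *snf1* arrays (replicates 1 to 3), 3.61 and 3.50 on the *cdc14-3* arrays and 3.69, 3.53 and 3.27 on the *cdc14-3 snf1* arrays. The strain means were 3.53 ± 0.66 (SD, n = 3), 3.55 ± 0.08 (n = 2) and 3.50 ± 0.21 (n = 3), which on a base of 2 correspond to 11.5-fold, 11.8-fold and 11.3-fold. The values of the other strains all lay within the range of the *snf1* arrays. *GPD1* ranked 15th, 38th and 11th from the top among the features tested, and limma called the rise in every strain (adjusted p of 2.29e-05, 7.45e-05 and 9.92e-05).

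*GPD2* encodes the isoenzyme of the same step, known for its role when oxygen is short. Its ratio was -0.23, 0.15 and -0.02 in *snf1*, -0.14 and -0.08 in *cdc14-3* and -0.32, -0.09 and 0.02 in *cdc14-3 snf1*. The 3 strains overlapped close to 0, and the adjusted p was 0.849, 0.611 and 0.422. The 95% confidence intervals of the mean response, -0.31 to 0.25 in *snf1*, -0.45 to 0.24 in *cdc14-3* and -0.41 to 0.15 in *cdc14-3 snf1*, leave room only for changes much smaller than that of *GPD1*.

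The glycerol-3-phosphatases differed from each other in the same way, but with a strain dependence. *GPP2*, the osmotically induced form, had ratios of 2.83, 2.63 and 2.07 in *snf1*, 3.35 and 3.37 in *cdc14-3* and 3.27, 3.85 and 2.72 in *cdc14-3 snf1*. Every *snf1* array lay below both *cdc14-3* arrays, while *cdc14-3 snf1* overlapped both single mutants. *GPP2* rose in all 3 strains, to means of 2.51 ± 0.40 (SD, n = 3), 3.36 ± 0.02 (n = 2) and 3.28 ± 0.57 (n = 3), with adjusted p of 8.07e-05, 7.45e-05 and 0.00011.

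*GPP1*, the form more abundant in unstressed cells, took opposite directions in the single mutants. Its ratio was -0.69, -0.48 and -0.56 in *snf1*, 1.21 and 0.87 in *cdc14-3* and -0.21, 0.97 and 0.50 in *cdc14-3 snf1*. All *snf1* arrays were below 0 and both *cdc14-3* arrays above 0, and the double mutant lay above *snf1* on every array with 1 array below 0. *GPP1* fell in *snf1* (mean -0.58 ± 0.11, SD, n = 3, adjusted p = 0.0353) and rose in *cdc14-3* (1.04 ± 0.24, n = 2, adjusted p = 0.00815), and its mean in *cdc14-3 snf1* was 0.42 ± 0.60 (n = 3, adjusted p = 0.113). The fall in *snf1* was not called without *snf1* replicate 1, 2 or 3 (adjusted p = 0.113, 0.0805 and 0.0953), without *cdc14-3* replicate 2 (0.0553) or without *cdc14-3 snf1* replicate 3 (0.0518), nor with arrays scaled to one spread (0.0508). The rise in *cdc14-3* was not called without *cdc14-3* replicate 2 (0.87, adjusted p = 0.155), and without *cdc14-3 snf1* replicate 1 the double mutant's response was called (0.74, adjusted p = 0.0138), as it was on the 2 h arrays alone (0.74, 0.00772), with array weights (0.52, 0.00732) and with heat time as a covariate (0.47, 0.0381).

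*STL1* encodes the glycerol and proton symporter and gave the largest response of the 10 genes on every array. Its ratio was 6.51, 6.99 and 5.80 in *snf1*, 7.51 and 7.50 in *cdc14-3* and 6.32, 7.41 and 6.45 in *cdc14-3 snf1*. Both *cdc14-3* arrays lay above all the others, and the ranges of *snf1* and *cdc14-3 snf1* overlapped. The means of 6.43 ± 0.60 (SD, n = 3), 7.50 ± 0.01 (n = 2) and 6.73 ± 0.60 (n = 3) ranked 2nd, 1st and 1st among the features tested, and on a base of 2 they correspond to 86.4-fold, 181-fold and 106-fold. The adjusted p was 3.03e-06, 4.78e-06 and 2.01e-06.

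*FPS1* encodes the channel through which glycerol leaves the cell, and its closure after osmotic shock acts on the protein. The transcript had ratios of -0.34, -0.09 and -0.51 in *snf1*, -0.24 and -0.43 in *cdc14-3* and -0.31, 0.03 and -0.38 in *cdc14-3 snf1*. All arrays but *cdc14-3 snf1* replicate 2 were below 0 and the strains overlapped, but no mean response passed the test (adjusted p = 0.0753, 0.135 and 0.211). The lowest bound of the 3 intervals was -0.71, in *cdc14-3*. With arrays weighted by their fit, *FPS1* was called lower in *cdc14-3* (-0.34, adjusted p = 0.048) and in *cdc14-3 snf1* (-0.29, adjusted p = 0.0373). Over all features the weighted fit called 3536 and 3713 in these strains, where the main fit called 2472 and 2828.

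*GCY1* encodes a glycerol dehydrogenase that oxidises glycerol to dihydroxyacetone. Its ratio was 0.67, 0.45 and 0.44 in *snf1*, 1.88 and 1.56 in *cdc14-3* and -0.0015, 0.79 and 0.62 in *cdc14-3 snf1*. The *cdc14-3* arrays stood above the other 6, which overlapped. *GCY1* rose in every strain, by 0.52 ± 0.13 (SD, n = 3, adjusted p = 0.0238), 1.72 ± 0.23 (n = 2, adjusted p = 0.000224) and 0.47 ± 0.41 (n = 3, adjusted p = 0.0397). The smaller rises depended on single arrays. In *snf1* the call was lost without replicate 1, 2 or 3 of that strain (adjusted p = 0.0866, 0.0632 and 0.0561) and after quantile normalization (0.0566). In *cdc14-3 snf1* it was lost without replicate 2 (mean 0.31, adjusted p = 0.239) or 3 (0.39, adjusted p = 0.186) of that strain, without *snf1* replicate 2 or 3 (adjusted p = 0.0525 and 0.0515) and without *cdc14-3* replicate 2 or 3 (0.063 and 0.0551).

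*DAK1*, whose product phosphorylates dihydroxyacetone, gave the widest spread between strains. Its ratio was 1.23, 0.96 and 0.47 in *snf1*, 3.03 and 2.89 in *cdc14-3* and 1.47, 2.57 and 1.98 in *cdc14-3 snf1*. The 3 strains did not overlap: every *snf1* array was below every *cdc14-3 snf1* array, and those were below both *cdc14-3* arrays. *DAK1* rose by 0.89 ± 0.39 (SD, n = 3), 2.96 ± 0.10 (n = 2) and 2.01 ± 0.55 (n = 3), with adjusted p of 0.00664, 8.06e-05 and 0.000246, and its rank from the top was 731 in *snf1*, 66 in *cdc14-3* and 76 in *cdc14-3 snf1*.

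The genes of glycerol use did not move together. *GUT1*, which encodes glycerol kinase, had ratios of -0.57, -0.73 and -0.78 in *snf1*, -0.46 and -0.28 in *cdc14-3* and -0.39, -0.08 and 0.06 in *cdc14-3 snf1*. Every *snf1* array lay below every array of the other strains. *GUT1* fell in *snf1* (-0.69 ± 0.11, SD, n = 3, adjusted p = 0.00207), and its means of -0.37 ± 0.13 (n = 2) in *cdc14-3* and -0.14 ± 0.23 (n = 3) in *cdc14-3 snf1* were not called (adjusted p = 0.0865 and 0.398). In *cdc14-3* the fall of *GUT1* was called on the 2 h arrays alone (adjusted p = 0.028) and with array weights (0.0171). Those fits called 3174 and 3536 of all features in *cdc14-3*, where the main fit called 2472.

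*GUT2* encodes the FAD-dependent glycerol-3-phosphate dehydrogenase of the mitochondrial inner membrane. Its ratio was 0.08, -0.55 and -0.59 in *snf1*, 1.62 and 1.69 in *cdc14-3* and 0.16, 0.85 and 0.51 in *cdc14-3 snf1*. As with *DAK1*, the 3 strains did not overlap and *cdc14-3* was highest. *GUT2* rose in *cdc14-3* (1.65 ± 0.05, SD, n = 2, adjusted p = 0.000373) and in *cdc14-3 snf1* (0.51 ± 0.34, n = 3, adjusted p = 0.0363), and its mean in *snf1* was -0.35 ± 0.37 (n = 3, adjusted p = 0.114). Without *snf1* replicate 1 the value in *snf1* was -0.57 and was called lower (adjusted p = 0.0232), as it was on the 2 h arrays alone (0.00867) and with array weights (0.0111). The rise in *cdc14-3 snf1* was not called without replicate 2 or 3 of that strain (adjusted p = 0.225 and 0.121) or without *cdc14-3* replicate 2 or 3 (0.0645 and 0.0559).

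Counted over the 10 genes, 7 changed in *snf1*, 5 of them higher and 2 lower, where 51.3% of all features tested were called, 24.3% higher and 27% lower. In *cdc14-3*, 7 of 10 rose and none fell, beside 40.3% of features called and 18.3% called higher. In *cdc14-3 snf1*, 6 of 10 rose and none fell, beside 46.1% called and 20.6% called higher. The median ratio of the 10 genes was 0.24 in *snf1*, 1.69 in *cdc14-3* and 0.49 in *cdc14-3 snf1*, and the median of all features was -0.06, -0.005 and -0.03. Of the 10 genes, 3 had means in the top 5 percent of features in *snf1*, 6 in *cdc14-3* and 4 in *cdc14-3 snf1*. The treated cells carried the same dye on each of the 8 arrays, so a dye bias of a gene enters these responses. It cancels in the differences between strains.

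The responses of the 3 strains were compared in the same limma fit. The single mutants differ from each other by both mutations and no wild type was analysed. Their contrast therefore cannot give the effect of either mutation alone. The contrast of the single mutants separated the genes most: *GPP1*, *GCY1*, *DAK1* and *GUT2* responded more strongly in *cdc14-3* than in *snf1*. The difference in log2 ratio was 2.07 for *DAK1* (SE 0.33, 95% interval 1.33 to 2.81, adjusted p = 0.00614) and 2.00 for *GUT2* (SE 0.27, interval 1.39 to 2.61, adjusted p = 0.00453). For *GPP1* it was 1.62 (SE 0.31, interval 0.91 to 2.32, adjusted p = 0.0118) and for *GCY1* 1.20 (SE 0.26, interval 0.62 to 1.77, adjusted p = 0.0154). These 4 of 10 genes, all higher, stand beside 18.9% of all features called in this contrast and 8.74% called higher. The differences for *STL1* (1.07, interval 0.18 to 1.95, adjusted p = 0.0871) and *GPP2* (0.85, interval 0.10 to 1.61, adjusted p = 0.105) pointed the same way and were not called over all features. *GPP2* was called with array weights (adjusted p = 0.0484), with arrays scaled to one spread (0.0298) and after quantile normalization (0.0417). On the 2 h arrays with the replicate block *GPP2* (0.0379) and *STL1* (0.0352) were called. Over all features these fits called 2548, 1446, 1191 and 2184 in that order, where the main fit called 1161. For 7 of 10 genes the *cdc14-3* and *snf1* arrays did not overlap and *cdc14-3* was the higher, the 4 called genes with *GPP2*, *STL1* and *GUT1*, where 25.3% of all features did so.

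The 4 calls between the single mutants depended on *cdc14-3* replicate 2. Without it none of the 10 genes, and none of the features tested, was called, although the sizes stayed close: 2.00 for *DAK1* (adjusted p = 0.0811), 2.04 for *GUT2* (adjusted p = 0.0671), 1.45 for *GPP1* (adjusted p = 0.126) and 1.04 for *GCY1* (adjusted p = 0.156). Without *cdc14-3* replicate 3 only *GCY1* lost the call (1.36, adjusted p = 0.061).

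*GPD1* showed no such separation. Its response differed by 0.03 between *cdc14-3* and *snf1* (interval -0.73 to 0.78), by -0.03 between *cdc14-3 snf1* and *snf1* (interval -0.71 to 0.65) and by -0.06 between *cdc14-3 snf1* and *cdc14-3* (interval -0.82 to 0.70). These intervals still allow differences of about the size seen for *GPP2*, and the sign of each changed under at least 1 other scaling or array set. For *GPD2* and *FPS1* the 3 differences lay between -0.10 and 0.12, and none of their intervals reached beyond -0.52 or 0.59.

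**Figure D2:**
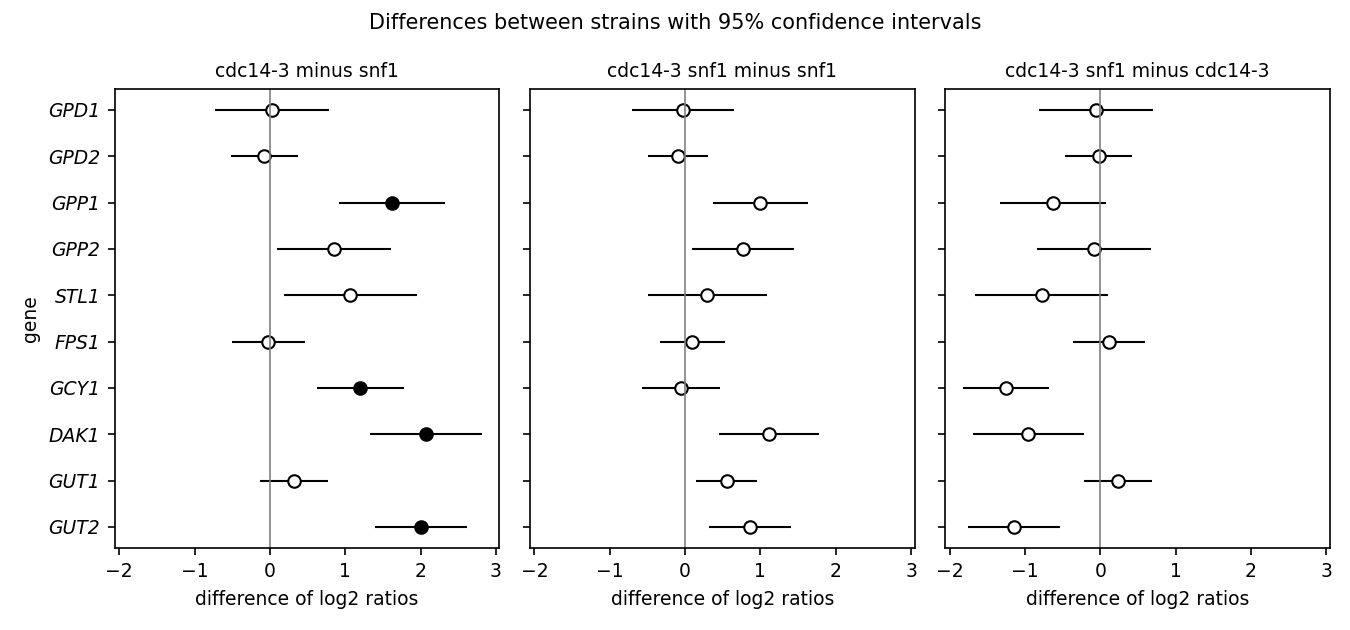
Difference in log2 ratio (horizontal axis) between strains for the 10 genes (vertical axis), in 3 panels of 1 contrast each, with points for the limma estimate and lines for the 95% confidence interval of each gene. Filled points passed an adjusted p of 0.05 over the 6135 features tested: *DAK1*, *GUT2*, *GPP1* and *GCY1* in *cdc14-3* minus *snf1* are the 4 that did, and *GPD1*, *GPD2* and *FPS1* sit near 0 in all panels.

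The double mutant was set against each single mutant to see what a second mutation adds. Between *cdc14-3 snf1* and *cdc14-3*, none of the 10 genes was called, beside 0.0489% of all features. An unadjusted p under 0.05 was reached by 3 of the 10, and by 676 of the 6135 features tested. The 3 were *GCY1* (-1.25, interval -1.83 to -0.68, adjusted p = 0.0977), *GUT2* (-1.15, interval -1.76 to -0.54, adjusted p = 0.157) and *DAK1* (-0.95, interval -1.70 to -0.21, adjusted p = 0.354). For these and *STL1* (-0.77, adjusted p = 0.525) every *cdc14-3 snf1* array lay below both *cdc14-3* arrays, 4 of 10 genes beside 17% of all features. The *cdc14-3 snf1* arrays include 1 at 90 min, while both *cdc14-3* arrays are at 2 h. On the 2 h arrays alone the differences were -1.02 for *GCY1*, -0.97 for *GUT2*, -0.69 for *DAK1* and -0.57 for *STL1*. None of the 10 genes was called there, beside 44 of all features. Without *snf1* replicate 1 *GUT2* was called (-1.15, adjusted p = 0.0487), in a fit that called 75 of all features against 3 in the main fit. When arrays were weighted by their fit, *GCY1*, *DAK1* and *GUT2* were called (adjusted p = 0.00727, 0.0495 and 0.00637), beside 4.43% of all features.

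Between *cdc14-3 snf1* and *snf1*, again none of the 10 genes was called, beside 0% of all features. An unadjusted p under 0.05 was reached by 5 of the 10, and by 1137 of the 6135 features tested. The differences were 1.12 for *DAK1* (interval 0.46 to 1.78, adjusted p = 0.142), 0.996 for *GPP1* (0.37 to 1.63, adjusted p = 0.145), 0.86 for *GUT2* (0.31 to 1.40, adjusted p = 0.147), 0.77 for *GPP2* (0.09 to 1.44, adjusted p = 0.233) and 0.55 for *GUT1* (0.15 to 0.96, adjusted p = 0.181). *GPP1*, *DAK1*, *GUT1* and *GUT2* were above *snf1* on every *cdc14-3 snf1* array, 4 of 10 genes beside 9.07% of all features. *GCY1* differed by -0.05 (interval -0.57 to 0.46). These calls changed with the arrays used. Without *snf1* replicate 1 *DAK1* (1.29, adjusted p = 0.0368) and *GUT2* (1.07, adjusted p = 0.0272) were called. Without *cdc14-3 snf1* replicate 1 *GPP1* (1.31, adjusted p = 0.0206) and *DAK1* (1.39, adjusted p = 0.036) were called. Over all features these fits called 731 and 257, where the main fit called 0.

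The strain means followed the order *snf1*, *cdc14-3 snf1*, *cdc14-3* from low to high for 5 genes: *GPP1*, *GPP2*, *STL1*, *DAK1* and *GUT2*. This order was not counted over all features. For *GPP2* the difference of *cdc14-3 snf1* minus *cdc14-3* was only -0.09 (adjusted p = 0.961). In that order *DAK1*, *GPP1* and *GUT2* separated *cdc14-3* from *snf1* by the test, and no step to or from the double mutant was called. *GCY1* was the exception among the 4 called genes in the means of all arrays, with the double mutant (0.47) near *snf1* (0.52). On the 2 h arrays alone the double mutant (0.70) did lie between *snf1* (0.45) and *cdc14-3* (1.72) for *GCY1*. The sign of *cdc14-3 snf1* minus *snf1* changed for this gene in 7 of 19 alternatives. *GUT1* had its highest mean in the double mutant.

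The 90 min arrays are replicate 1 of *snf1* and of *cdc14-3 snf1*, and *cdc14-3* has no 90 min array. With heat time as a term beside strain, none of the 10 genes was called between 90 min and 2 h, beside 0% of all features. Of the 10, 1 (*GPP1*) had an unadjusted p under 0.05 (-0.56, adjusted p = 0.264), as did 1103 of the 6135 features tested. Within strains, the 90 min array was also placed against the 2 h arrays for each of the 10 genes. In *snf1* it lay above both 2 h arrays for 6 genes, below both for 2 and between them for 2. In *cdc14-3 snf1* it lay above for 1, below for 7 and between for 2. These positions were not counted over all features, so no effect of heat time can be read from them.

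For *GCY1*, *DAK1*, *GUT1* and *GUT2* the 90 min array was the highest of its strain in *snf1* and the lowest in *cdc14-3 snf1*. This pattern was not counted over all features. *GUT2* was 0.65 above the mean of the 2 h arrays in *snf1* and 0.52 below it in *cdc14-3 snf1*, and *DAK1* was 0.52 above and 0.80 below. At 90 min *GUT2* read 0.08 in *snf1* and 0.16 in *cdc14-3 snf1*, *DAK1* 1.23 and 1.47, and *GUT1* -0.57 and -0.39. Other genes lay further apart there: the double mutant minus *snf1* was -0.67 for *GCY1*, against 0.26 at 2 h, and 0.47 for *GPP1*, 0.44 for *GPP2* and -0.43 for *GPD1*. At 2 h the double mutant exceeded *snf1* by 1.25 for *GUT2*, 1.56 for *DAK1*, 1.26 for *GPP1* and 0.74 for *GUT1*. These 4 differences were called in a fit of the 2 h arrays alone (adjusted p = 0.00941, 0.0116, 0.0131 and 0.0222), 4 of 10 genes beside 22.7% of all features. The 4 calls between the single mutants were also made in that fit, beside 37.4% of all features. The 90 min values are 1 array per strain, so whether the difference between strains depends on heat time was not tested. The 90 min arrays of *snf1* and *cdc14-3 snf1* also had the lowest array weights (0.214 and 0.479). Heat time therefore cannot be told apart from how well these arrays fit.

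**Figure D3:**
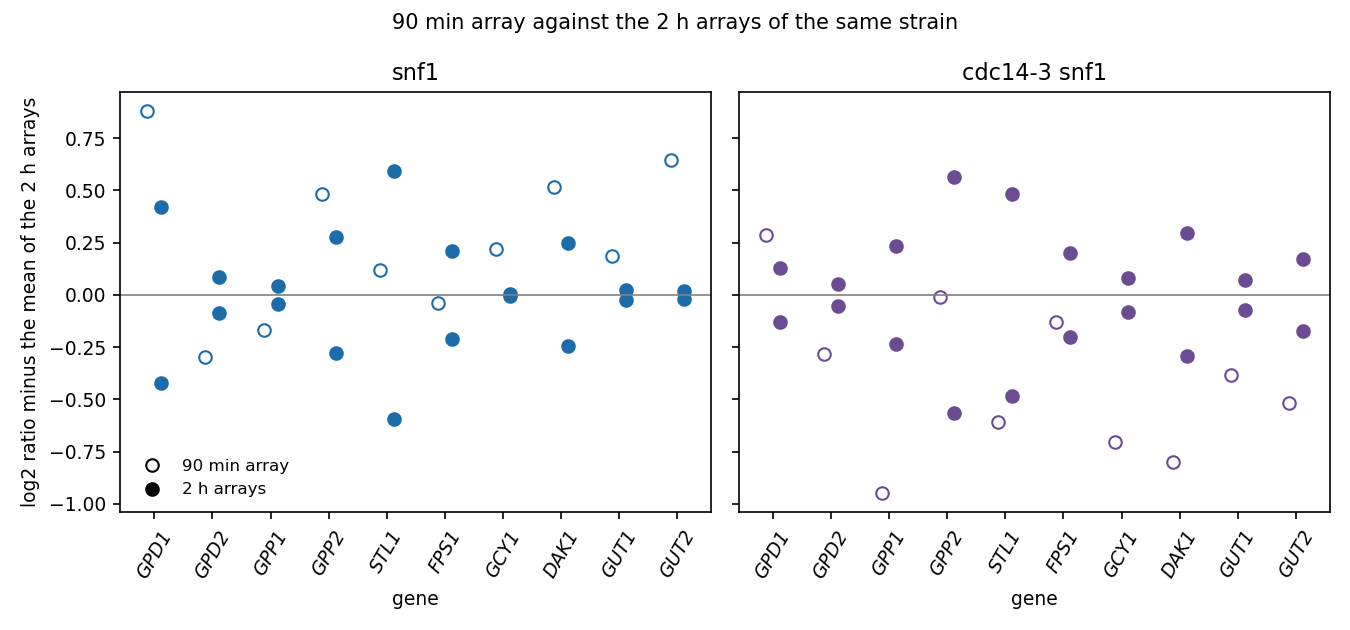
Log2 ratio of each array minus the mean of the 2 h arrays of its strain (vertical axis) for the 10 genes (horizontal axis), in *snf1* (left) and *cdc14-3 snf1* (right). Open points are the single 90 min array and filled points the 2 h arrays: *GUT2* at 90 min lies 0.65 above in *snf1* and 0.52 below in *cdc14-3 snf1*.

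Several steps of the pathway are served by a pair of enzymes, and within an array the 2 log2 ratios can be set against each other. *GPD1* exceeded *GPD2* by 2.83 to 4.34 on all 8 arrays. *GPP2* exceeded *GPP1* by 2.14 to 3.52 on all 8 arrays, with strain means of 3.09 in *snf1*, 2.32 in *cdc14-3* and 2.86 in *cdc14-3 snf1*. The third pair behaved differently: *GCY1* exceeded *YPR1*, which encodes a related reductase, on the 2 *cdc14-3* arrays only (0.70 and 0.64), and fell short of it on the other 6 (-0.88 to -0.13). *DAK1* exceeded *DAK2* on 6 of the 7 arrays with both values, by up to 2.82, and *DAK2* was not tested because *cdc14-3* replicate 2 had no value for it. Members of a pair are related in sequence, and how far their probes can tell them apart is unknown.

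**Figure D4:**
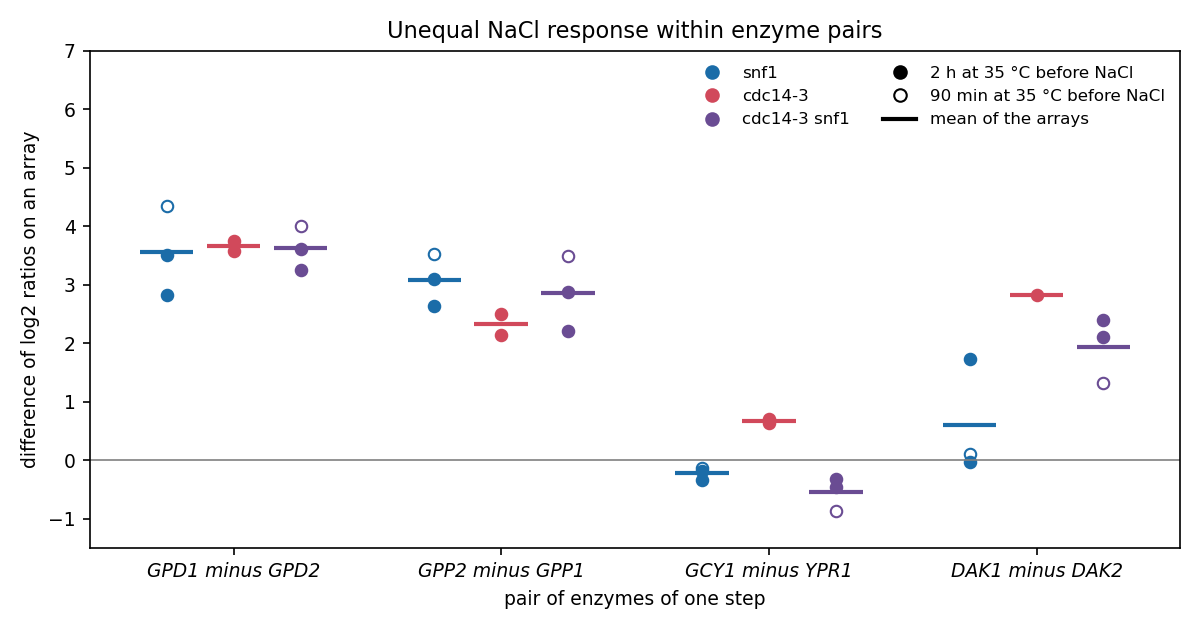
Difference of 2 log2 ratios on the same array (vertical axis) for 4 pairs of enzymes of one step (horizontal axis), with points coloured by strain, open points for 90 min at 35 °C and bars for strain means. *GPD1* minus *GPD2* and *GPP2* minus *GPP1* are above 2 on every array, and *GCY1* minus *YPR1* is above 0 on the 2 *cdc14-3* arrays only.

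A further 13 genes of glycerol and redox metabolism served as context, of which 11 could be tested. In each of the 3 strains 6 of these 11 changed: 3 rose and 3 fell in *snf1*, 3 rose and 3 fell in *cdc14-3*, and 2 rose and 4 fell in *cdc14-3 snf1*. The same share, 54.5%, stands beside 51.3%, 40.3% and 46.1% of all features. Averaged over the 3 strain means, the highest were *NDE2*, an external NADH dehydrogenase of mitochondria (1.26 ± 0.79, SD, n = 3, in *snf1*, 2.41 ± 0.05, n = 2, in *cdc14-3* and 1.35 ± 0.41, n = 3, in *cdc14-3 snf1*), and *YIG1* (1.99 ± 0.43, n = 3, 0.59 on the 1 *cdc14-3* array with a value, and 1.23 ± 0.47, n = 3), which was not tested. By the same average the lowest were *ASK10*, a regulator of Fps1 (-1.06 ± 0.05, -0.64 ± 0.04 and -0.93 ± 0.30), and *NDE1*, the paralog of *NDE2* (-0.75 ± 0.56, -0.53 ± 0.11 and -1.02 ± 0.36).

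Only *GUP2*, a paralog of the membrane protein gene *GUP1* once linked to glycerol uptake, was called between strains. Its ratio was 1.47, 1.25 and 1.14 in *snf1*, -1.67 and -1.75 in *cdc14-3* and -0.21, -1.44 and -0.23 in *cdc14-3 snf1*. Every *snf1* array was above 0 and every other array below it. The difference of *cdc14-3* minus *snf1* was -3.0 (SE 0.35, adjusted p = 0.00435), in the opposite direction to the 4 called genes of the 10.

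The genes closest to *GPD1*, *STL1* and *GUT1* were sought by Pearson's r over the 8 arrays among 6086 features outside the 10. The 8 points share strains and dyes, and the values are a description. For *GPD1* they were *MSC3* (0.97), *YRR1* (0.96) and *PMC1* (0.96), for *STL1* *PRB1* (0.94), *WHI5* (0.93) and *RSR1* (0.93), and for *GUT1* YOR379C, *MAK10* (both 0.97) and *YCG1* (0.96). Likeness in pattern was not likeness in size, as *MSC3* averaged 0.20 to 0.27 where *GPD1* averaged 3.50 to 3.55. Among the 10 genes themselves, *DAK1* and *GUT2* had r of 0.97 over the 8 arrays and *GPP1* and *DAK1* 0.95, while *GPD1* and *GPP1* had -0.07.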

How the data were processed

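Labelled cDNA from total RNA of NaCl-treated (Oyster 550) and unstressed (Oyster 650) cells was hybridised together to whole-genome tiled arrays. The deposited table holds log2 ratios, 1 for each feature on an array, which the authors had normalized by steps not given in the sources used here; the values were used as deposited, with no further normalization. Of 6868 features, 5984 matched a locus tag in the RefSeq table of assembly R64, used for symbols only.

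The 3 strain means were estimated together from the 8 arrays with limma 3.58.1 (lmFit and eBayes, R 4.3.3), and p-values were adjusted by Benjamini-Hochberg over the 6135 features measured on 2 or more arrays in each strain, at 0.05; the study used limma with Q-values. A fit with strain and heat time tested 90 min against 2 h. Confidence intervals are per gene. The scripts were tested on simulated data. Precision is limited by 2 or 3 arrays per strain.

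The 10 genes, the 13 context genes and the tests were chosen with earlier results of these data known. Named were the 10 genes, context genes called between strains or with the 2 largest and 2 smallest means, and the 3 features most like *GPD1*, *STL1* and *GUT1*. Alternatives were a replicate block, heat time as a covariate, the 2 h arrays, array weights, other scalings and filters, a robust trend, 2 strains at a time and leaving out each array. Promoter and protein sequences were not used here.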

Additional observations from a re-analysis of the deposited data

Results flagged for a closer look

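The responses of 4 of the 10 genes differed between the single mutants by the limma contrast of *cdc14-3* minus *snf1*, by 2.07 for *DAK1*, 2.00 for *GUT2*, 1.62 for *GPP1* and 1.20 for *GCY1* on the log2 scale (adjusted p = 0.00614, 0.00453, 0.0118 and 0.0154). In this contrast 18.9% of all features were called, and without *cdc14-3* replicate 2 none of the 10 genes and 0 features were. In each case the 2 *cdc14-3* values were higher than the 3 *snf1* values. On the 2 h arrays alone the differences were 2.25, 2.22, 1.56 and 1.27. The context gene *GUP2* differed in the other direction (-3.0, adjusted p = 0.00435), with all *snf1* arrays above 0 and both *cdc14-3* arrays below 0. The groups of 2 or 3 arrays are too small for a search for single outlying arrays.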

How the results depend on the processing

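For the 60 pairs of gene and strain comparison, 19 alternatives gave 1080 values. Of these, 973 kept their direction and their side of the threshold, 27 lost and 36 gained the call, and 44 changed sign, none of which was called in either fit. Whether the replicate numbers pair the arrays could not be decided. Deviations from the strain means had r of -0.21 to 0.26 between same-numbered arrays and -0.26 to 0.21 between differently numbered ones. With means of only 2 or 3 arrays these values are tied to each other. With the replicate block the genes called were 7 in *snf1*, 7 in *cdc14-3* and 5 in *cdc14-3 snf1* (*GUT2* lost, adjusted p = 0.0547). The block gave 4 between the single mutants and 0 in the other contrasts. Over all features it called 3253 in *snf1*, 2592 in *cdc14-3*, 2928 in *cdc14-3 snf1* and 890 between the single mutants. The number of the 10 genes called in *cdc14-3 snf1* minus *snf1* went from 0 to 4 on the 2 h arrays, to 4 there with the block and to 4 with array weights; weights also gave 3 in *cdc14-3 snf1* minus *cdc14-3*. With arrays scaled to one spread, 1 gene was called for heat time (*STL1*). Array weights were lowest for *snf1* replicate 1 (0.214) and *cdc14-3 snf1* replicate 1 (0.479).

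Leaving out 1 array gave 5 to 7 genes called in *snf1*, 6 to 7 in *cdc14-3*, 4 to 7 in *cdc14-3 snf1*, 0 to 4 in *cdc14-3* minus *snf1*, 0 to 1 in *cdc14-3 snf1* minus *cdc14-3* and 0 to 2 in *cdc14-3 snf1* minus *snf1*; a lone *cdc14-3* array was assumed to vary like the other strains. Over all features, *cdc14-3* minus *snf1* moved from 1161 calls to 2278 on the 2 h arrays, 2184 with the block there, 2548 with weights and 0 to 1911 with 1 array left out. For *cdc14-3 snf1* minus *snf1*, 0 became 10 (block), 110 (heat time), 1382, 1273 (2 h, with block), 1657 (weights), 11 (robust trend) and 0 to 731. For *cdc14-3 snf1* minus *cdc14-3*, 3 became 13 (heat time), 44, 36 (2 h, with block), 272 (weights), 51 (scaled), 20 (quantile), 25 (2 strains), 0 (no filter) and 0 to 75. The *cdc14-3* response moved from 2472 to between 919 and 2919, and heat time from 0 to 1 (scaled) and 0 to 354. With 1 array left out, the *snf1* response had 2476 to 3123 features called and the *cdc14-3 snf1* response 2074 to 3229. Causes were not tested.

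The sign changes were as follows. For *GPD1*, *cdc14-3 snf1* minus *snf1* was 0.17 on the 2 h arrays (also with the block), 0.53 scaled and 0.94 quantile-normalized, and -0.39 to 0.26 with 1 array left out; *cdc14-3 snf1* minus *cdc14-3* was 0.11 scaled, 0.97 quantile-normalized and -0.15 to 0.054; *cdc14-3* minus *snf1* was -0.035 quantile-normalized and -0.33 to 0.32. For *GPD2*, *cdc14-3 snf1* minus *cdc14-3* was 0.075 with the block and with heat time, 0.073 on the 2 h arrays (also with the block), 0.069 with weights, and -0.095 to 0.073 with 1 array left out. The response of *GPD2* in *snf1* was 0.067 on the 2 h arrays, 0.068 with weights and -0.12 to 0.07, and *cdc14-3* minus *snf1* -0.17 to 0.016. For *GCY1*, *cdc14-3 snf1* minus *snf1* was 0.26 on the 2 h arrays (also with the block), 0.12 with weights, 0.065 scaled, 0.14 quantile-normalized and -0.21 to 0.18. For *FPS1* it was -0.043 with weights and -0.026 to 0.21, *cdc14-3 snf1* minus *cdc14-3* -0.0070 to 0.21 and *cdc14-3* minus *snf1* -0.12 to 0.093. For *GPP2*, *cdc14-3 snf1* minus *cdc14-3* was 0.07 scaled, 0.69 quantile-normalized and -0.37 to 0.20. For *STL1* it was 0 quantile-normalized, where the highest features of each array are set to equal values, and *cdc14-3 snf1* minus *snf1* was -0.049 to 0.57 with 1 array left out.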

Other observations

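By the RefSeq table no annotated gene overlaps any of the 10 genes. Of their 20 nearest neighbours 3 (*GPM2*, *THO1* and *FIT1*) are on the study's Hot1 list, which holds 67 genes where there are 6868 features. Whether neighbouring genes respond together was not tested. YDL022C-A, the small open reading frame next to *GPD1* on the other strand, had means of 4.36 ± 0.22 (SD, n = 3) in *snf1*, 1.46 ± 1.31 (n = 2) in *cdc14-3* and 2.74 ± 0.53 (n = 3) in *cdc14-3 snf1*, and was chosen for mention after its values were seen. *GPD1* itself had means of 3.50 to 3.55.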
